A study of Homo sapiens with 6 samples.

Results

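The signals of 8 genes of innate immunity were followed in SU-DHL-2 cells, a diffuse large B-cell lymphoma (DLBCL) cell line, cultured with or without the cytokine IL-17A. The genes were the C1q chains C1QA, C1QB and C1QC, the signaling adaptors FCER1G and TYROBP, the pattern recognition molecules FCN1 and MARCO, and the membrane protein MS4A7. They were chosen by their difference between the IL-17A and control arrays analysed here, with C1QB opposite to C1QA and C1QC. Their values are therefore a description of this choice and carry no test. They were 8 of 19740 genes that the arrays name, of which 14747 were measurable, and were read by 9 of 34127 probes.

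The IL-17A group held 3 samples of SU-DHL-2 cells given IL-17A at 200 pg/ml for 72 h, and the control group held 3 samples without it. All samples came from the same cell line in the same medium, so the comparison speaks for a single line at a single dose and time. Total RNA of each sample was labeled with Cy3 and hybridized to a 1-colour Whole Human Genome array. The sources do not say whether the samples were separate cultures, and the p-values below measure only the spread between these samples, which may be technical. Values are log2 signals after quantile normalization, and a difference is the IL-17A mean minus the control mean on that log2 scale. IL-17A replicate 1 lay on the slide of the 3 controls and IL-17A replicates 2 and 3 on another, as inferred from shared scans. For each gene, replicate 1 minus the control mean is therefore also given as the value within a slide. Between 23570 and 24077 probes were detected per array, and no spot was saturated. Of the 23945 probes tested by limma, 241 rose and 281 fell by at least 1.5-fold with an unadjusted p under 0.05, together 2.18% of the probes. The same call was made for 1.92% of the 14747 genes, upward for 0.814% and downward for 1.11%.

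C1q is the recognition molecule of the classical complement pathway. It is built from A, B and C chains, carries the proteases C1r and C1s, and is made mainly by macrophages and dendritic cells. FCER1G, the common Fc receptor gamma chain, and TYROBP, also called DAP12, pair with surface receptors that lack a signaling tail and pass the signal on through an ITAM, a tyrosine motif that recruits the kinase SYK. FCN1 (M-ficolin) is a lectin of monocytes and neutrophils that starts the lectin pathway of complement, MARCO is a scavenger receptor of macrophages, and MS4A7 belongs to the family of the B-cell antigen CD20 and is found mainly on macrophages. Most of these genes are thus known from myeloid cells more than from B cells.

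In the RefSeq gene order of GRCh38.p14, C1QA, C1QC and C1QB are neighbours on chromosome 1. The 250 bases before the start of C1QA (the more downstream of its listed starts), C1QB, FCER1G and TYROBP are shown 5′ to 3′ on the gene's strand. These genes are shown because C1QA and C1QB, with C1QC between them, had opposite differences and the adaptors had differences of the same sign. Sequences are from RefSeq, build GRCh38.p14, and capitals mark the letters GGAA or their reverse complement TTCC, the core of sites for ETS factors such as PU.1.
C1QA, chr1:22636378-22636627, plus strand: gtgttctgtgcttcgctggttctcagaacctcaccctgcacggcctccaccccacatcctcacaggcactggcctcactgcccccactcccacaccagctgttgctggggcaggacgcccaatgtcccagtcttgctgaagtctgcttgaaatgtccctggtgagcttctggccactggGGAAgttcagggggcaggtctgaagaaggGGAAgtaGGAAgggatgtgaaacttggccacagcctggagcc
C1QB, chr1:22652986-22653235, plus strand: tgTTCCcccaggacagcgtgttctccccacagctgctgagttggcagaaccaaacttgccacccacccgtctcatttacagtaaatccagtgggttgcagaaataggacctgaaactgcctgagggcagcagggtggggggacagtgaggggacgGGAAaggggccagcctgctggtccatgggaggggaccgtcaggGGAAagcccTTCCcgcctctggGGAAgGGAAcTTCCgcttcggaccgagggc
FCER1G, chr1:161215045-161215294, plus strand: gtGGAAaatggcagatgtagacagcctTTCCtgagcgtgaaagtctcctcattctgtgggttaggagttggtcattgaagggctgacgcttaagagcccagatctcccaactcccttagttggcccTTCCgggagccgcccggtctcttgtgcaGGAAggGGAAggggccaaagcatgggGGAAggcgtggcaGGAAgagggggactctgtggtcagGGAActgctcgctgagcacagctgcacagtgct
TYROBP, chr19:35908296-35908545, minus strand: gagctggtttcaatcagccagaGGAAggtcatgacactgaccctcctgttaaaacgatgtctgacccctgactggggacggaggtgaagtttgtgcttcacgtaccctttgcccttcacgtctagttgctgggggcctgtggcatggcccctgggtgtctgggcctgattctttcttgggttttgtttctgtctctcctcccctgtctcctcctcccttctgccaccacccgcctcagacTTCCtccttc

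The capitals occur 3 times in the C1QA window, 7 times in that of C1QB, 8 times in that of FCER1G and 2 times in that of TYROBP, with overlaps counted. GGAA or TTCC is held by 92.7% of the 35116 RefSeq windows of this length, so its presence sets none of these genes apart. Windows were matched for 7 of the 8 genes, C1QC being the exception. The longer PU-box GAGGAA, on either strand and overlapping the core, was in the windows of FCN1, MS4A7 and TYROBP, and in 23.6% of all windows. The AP-1 site TGACTCA, on either strand, was in the windows of 0 of the 7 genes and in 4.2% of all windows. The TATA box letters TATAAA, on either strand, were in the window of MS4A7 and in 10.7% of all windows. These matches are letters in a window and not measured binding.

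Among the C1q chains, C1QB had a higher signal with IL-17A, and C1QA and C1QC a lower one. C1QA measured 2.66, 2.29 and 2.26 on IL-17A replicates 1, 2 and 3, and 3.09, 2.90 and 2.87 on control replicates 1, 2 and 3. All IL-17A arrays lay below all controls, and IL-17A replicate 3 was not well above background. The C1QA mean was 2.40 ± 0.22 with IL-17A against 2.95 ± 0.12 without it (SD, n = 3 each), a difference of -0.55, or 1.46-fold lower. Within the shared slide the C1QA difference was -0.29.

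C1QB measured 3.00, 4.01 and 3.40 on IL-17A replicates 1, 2 and 3, and 2.71, 2.59 and 2.51 on the control replicates. All IL-17A arrays lay above all controls, with replicate 2 the highest. The C1QB mean was 3.47 ± 0.51 with IL-17A against 2.60 ± 0.10 without it (SD, n = 3 each), a difference of 0.87, or 1.82-fold higher. Within the shared slide the C1QB difference was 0.40.

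C1QC measured 2.63, 2.61 and 2.87 on IL-17A replicates 1, 2 and 3, and 2.85, 3.45 and 3.80 on the control replicates. The groups overlapped, since control replicate 1 was at the level of IL-17A replicate 3, and the spread lay in the controls. The C1QC mean was 2.70 ± 0.14 with IL-17A against 3.37 ± 0.48 without it (SD, n = 3 each), a difference of -0.67, or 1.59-fold lower. Within the shared slide the C1QC difference was -0.74.

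All C1q chains were dim. The lowest signal that counted as well above background differed between arrays, and against it the controls read 1.74 to 2.35 times for C1QA, 1.35 to 1.80 times for C1QB and 1.99 to 3.30 times for C1QC. With IL-17A these ranges were 1.11 to 1.64 for C1QA, 2.07 to 3.93 for C1QB and 1.49 to 1.69 for C1QC. At this brightness, differences between group means were often large. Of the 2109 tested probes with a mean log2 signal under 3, 19.8% differed by at least 1.5-fold between the group means, and of the 2634 probes from 3 to 4, 7.48% did. Among the 9151 probes from 8 up the share was 0.459%. Normexp background correction with an offset of 50, which draws dim signals together, left differences of -0.08 for C1QA, 0.09 for C1QB and -0.06 for C1QC.

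**Figure D1:**
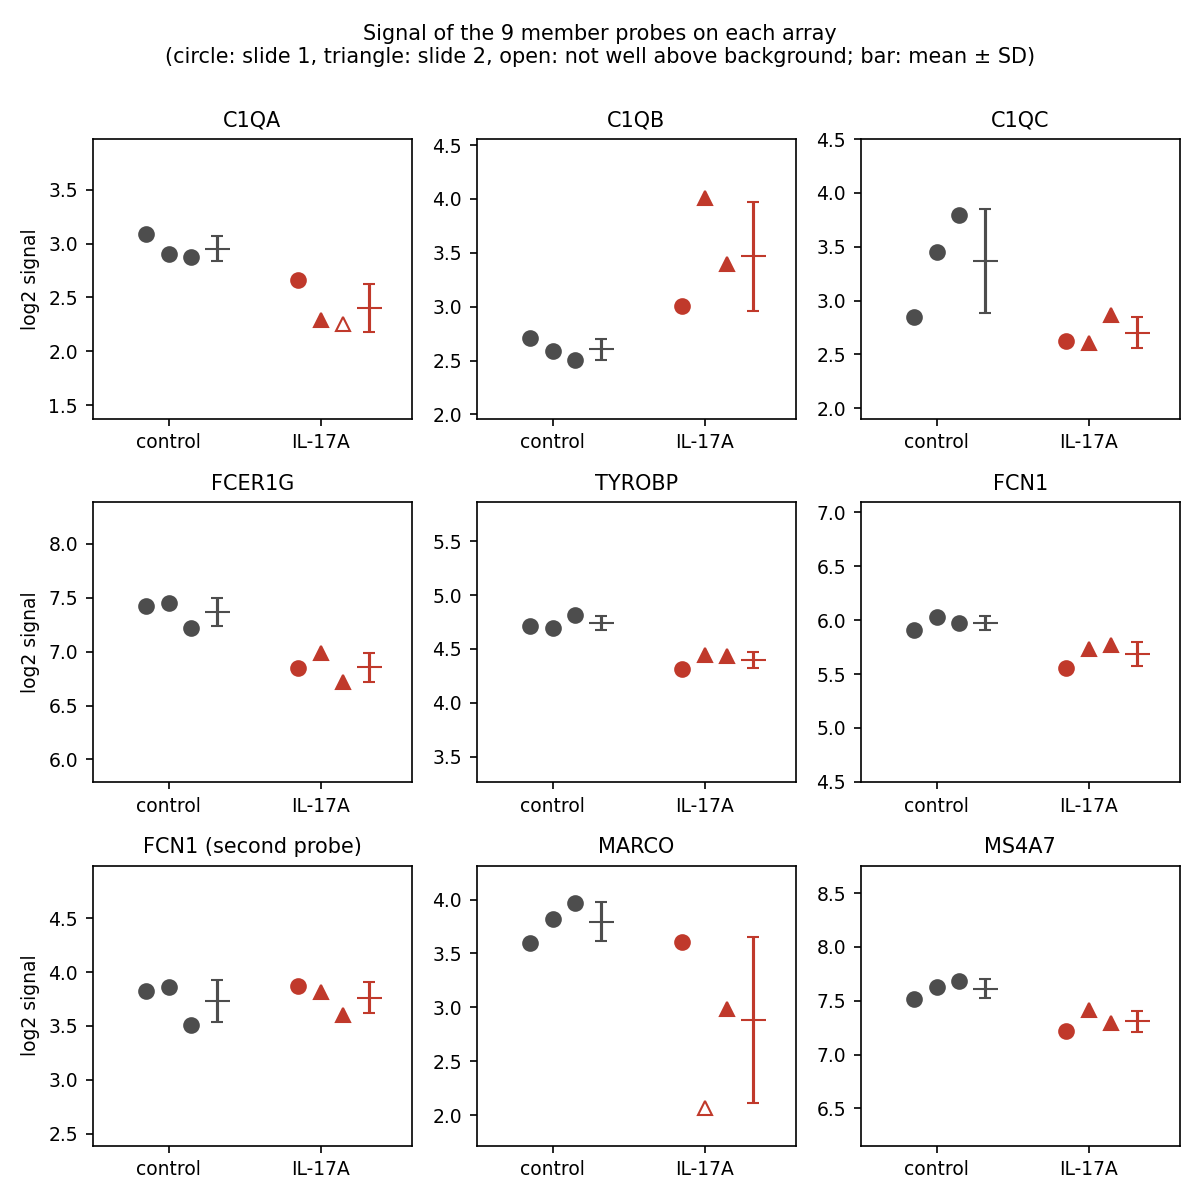
Log2 signal (y axis, each panel spanning the same log2 range) of the 9 probes of the 8 genes on each control array (grey) and IL-17A array (red), with circles for the slide of the controls, triangles for the other slide, open symbols for arrays not well above background, and bars for mean ± SD (n = 3). C1QB sits higher with IL-17A, C1QA, FCER1G, TYROBP, MS4A7 and the brighter FCN1 probe sit lower without overlap, and C1QC, MARCO and the second FCN1 probe overlap.

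Both ITAM adaptors had lower signals with IL-17A on every array. FCER1G measured 6.85, 6.99 and 6.72 on IL-17A replicates 1, 2 and 3, and 7.43, 7.45 and 7.22 on the control replicates. The FCER1G groups did not overlap. Its mean was 6.85 ± 0.13 with IL-17A against 7.36 ± 0.13 without it (SD, n = 3 each), a difference of -0.51, or 1.43-fold lower, and the difference within the shared slide was also -0.51. FCER1G was far above background, at 35.3 to 47.5 times the lowest reliable signal in the controls and 24.4 to 31.1 times with IL-17A, and normexp left -0.30.

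TYROBP measured 4.31, 4.44 and 4.44 on IL-17A replicates 1, 2 and 3, and 4.71, 4.70 and 4.81 on the control replicates. Its groups did not overlap either, and the spread within each was small. The TYROBP mean was 4.40 ± 0.07 with IL-17A against 4.74 ± 0.06 without it (SD, n = 3 each), a difference of -0.35, or 1.27-fold lower, with -0.43 within the shared slide and -0.09 under normexp. It stood 6.38 to 7.24 times over the lowest reliable signal in the controls and 5.01 to 5.31 times with IL-17A.

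Of the pattern recognition genes, FCN1 was read by 2 probes that differed. The brighter FCN1 probe measured 5.56, 5.74 and 5.77 on IL-17A replicates 1, 2 and 3, and 5.90, 6.03 and 5.97 on the control replicates, without overlap. Its mean was 5.69 ± 0.11 with IL-17A against 5.97 ± 0.06 without it (SD, n = 3 each), a difference of -0.28, or 1.22-fold lower, with -0.41 within the shared slide and -0.11 under normexp. The second FCN1 probe measured 3.87, 3.81 and 3.60 with IL-17A and 3.82, 3.87 and 3.50 in the controls. These values overlapped, and the difference was 0.03, with 0.14 within the shared slide. The sign at the second FCN1 probe turned in 5 of 16 alternatives, among them scaling to the 75th percentile, which gave -0.06, and no normalization, which gave -0.03. The lower FCN1 signal was therefore seen at only 1 of its 2 probes.

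MARCO measured 3.60, 2.07 and 2.98 on IL-17A replicates 1, 2 and 3, and 3.60, 3.82 and 3.97 on the control replicates. IL-17A replicate 1 lay at the level of the lowest control, and replicate 2, not well above background, lay far below. The MARCO mean was 2.88 ± 0.77 with IL-17A against 3.80 ± 0.18 without it (SD, n = 3 each), a difference of -0.91, or 1.88-fold lower. Without IL-17A replicate 2 the MARCO difference was -0.50, within the shared slide -0.19, and under normexp -0.09.

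MS4A7 measured 7.22, 7.42 and 7.29 on IL-17A replicates 1, 2 and 3, and 7.52, 7.63 and 7.69 on the control replicates. The MS4A7 groups did not overlap. The mean was 7.31 ± 0.10 with IL-17A against 7.61 ± 0.09 without it (SD, n = 3 each), a difference of -0.30, or 1.23-fold lower, with -0.39 within the shared slide and -0.22 under normexp. MS4A7 was 48.7 to 50.5 times over the lowest reliable signal in the controls and 36.2 to 41.8 times with IL-17A.

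Taking FCN1 at its brighter probe, 7 of the 8 genes had a lower mean with IL-17A and 1, C1QB, a higher one, and the median difference was -0.43 against 0.003 over all 14747 genes. The groups did not overlap for 6 of the 8 genes, 5 lower and 1 higher, beside 40.7% of all genes tested (19.3% lower and 21.4% higher). A difference of at least 1.5-fold was reached by 3 genes, C1QB upward and C1QC and MARCO downward, beside 2.97% of all genes. Nothing is read from these counts, since the contrast that gives them also chose the genes. The genes past 1.5-fold were those with dim signals and wide spread, and the brighter genes FCER1G and MS4A7 had smaller differences and less spread.

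**Figure D2:**
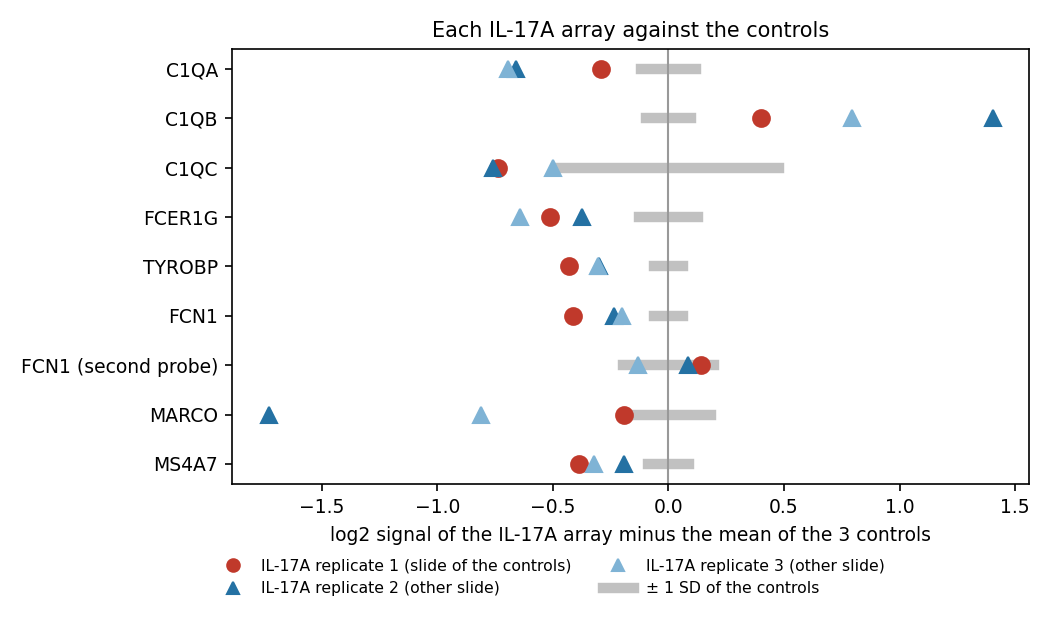
Log2 signal of each IL-17A array minus the mean of the 3 controls (x axis) for the 9 probes, with the array that shared the controls' slide as circles, the arrays of the other slide as triangles, and ± 1 SD of the controls (n = 3) as grey bars. The array on the shared slide had the smallest shift for C1QA (-0.29), C1QB (0.40) and MARCO (-0.19) and the largest for TYROBP (-0.43), the brighter FCN1 probe (-0.41) and MS4A7 (-0.39).

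The IL-17A array on the controls' slide was the closest of the 3 to the controls for 3 genes, C1QA, C1QB and MARCO, and the farthest for 3 others, TYROBP, FCN1 and MS4A7. At the brightest probe every gene kept its sign on that array. That array was part of the contrast that chose the genes, so nothing is read from these signs. With slide in the fit, the value is the difference within the shared slide, which was under the difference over both slides by more than 1.5 times for C1QA, C1QB and MARCO. The part of the slide in these differences was not tested beyond this value.

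Over the 6 arrays, MARCO and C1QB ran opposite, with a Pearson correlation of -0.98, as did C1QA and C1QB at -0.88. TYROBP ran together with MS4A7 at 0.95 and with FCN1 at 0.93. Other pairs were weaker, such as C1QA with C1QC at 0.49 and MARCO with MS4A7 at 0.45. The genes with the pattern most like that of C1QA were CAB39L (0.996), IMP4 (0.995) and BRPF1 (0.993), those for C1QB were HNRNPH3 (0.993), RPL13P5 (0.990) and TRMT10A (0.990), and those for TYROBP were HMGN5 (0.9997), RALGAPB (0.997) and TRAF7 (0.995). A correlation above 0.9 was shared with 855, 353 and 700 genes, respectively. All of these points share the same 6 arrays, groups and slides, so the correlations are descriptions of few samples.

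**Figure D3:**
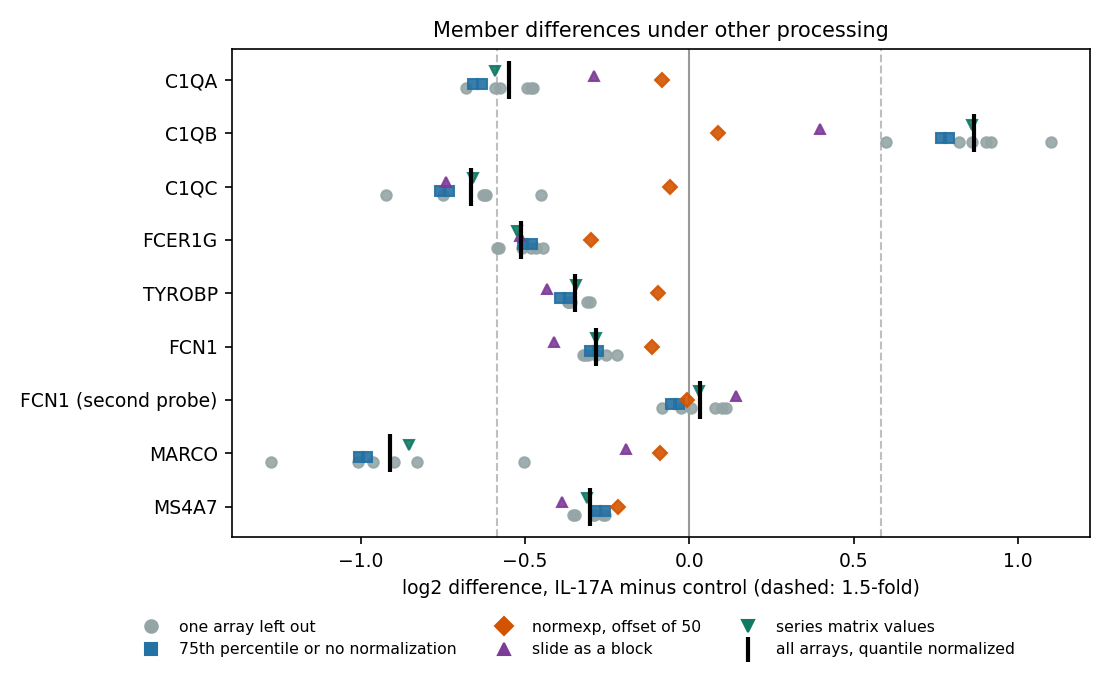
Difference of the mean log2 signals, IL-17A minus control (x axis, dashed lines at 1.5-fold), for the 9 probes over all arrays (black bars) and under other processing (symbols as named below the plot). At the brightest probes no sign turned, from which nothing is read, since this contrast chose the genes. Normexp drew the differences towards 0, to between -0.30 for FCER1G and 0.09 for C1QB, and the second FCN1 probe crossed 0.

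To place the 8 genes in their pathways, other genes of complement, ITAM signaling, the MS4A family and pattern recognition were tested by limma over all probes, with Benjamini-Hochberg adjustment over the 23945 probes. These lists, like the marker lists below, were chosen with earlier results of these data known. The shares of their genes that passed, set beside all genes, are therefore descriptions. Of 40 complement genes, 26 were measurable, 1 rose, 1 fell (CLU) and 24 did not pass, a called share of 7.69% beside 1.92% of all genes. CLU, clusterin, a secreted chaperone that blocks the membrane attack complex, was well above background on all controls and on 0 of 3 IL-17A arrays. CLU was 2.04-fold lower with IL-17A (limma, adjusted p = 0.049), and -1.06 on the log2 scale with slide as a block. The median log2 fold change of the measurable complement genes was -0.04.

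Of the proteases that C1q carries, C1S passed with adjustment and C1R did not. C1S rose from 5.81 ± 0.11 to 6.27 ± 0.02 (SD, n = 3), below 1.5-fold, with a log2 fold change of 0.46 and SE 0.06 (limma, adjusted p = 0.033). For C1R the log2 fold change was 0.30 with SE 0.13 (limma, adjusted p = 0.179). C2, the substrate of C1s, fell by 0.43 on the log2 scale (limma, adjusted p = 0.033), and its other probe gave 0.21. ITGB2, the beta chain of complement receptors CR3 and CR4, rose by 0.54 (limma, adjusted p = 0.025) and was 0.50 within the shared slide. Of the alpha chains of these receptors, ITGAM gave -0.39 (limma, adjusted p = 0.206), and ITGAX was detected on 1 of 6 arrays. VTN, vitronectin, fell by 0.41 on the log2 scale (limma, adjusted p = 0.045). In all, 5 complement genes had an adjusted p under 0.05 (C1S and ITGB2 higher, C2, VTN and CLU lower), or 19.2% of those measurable beside 7.85% of all genes. With an array left out, the adjusted p stayed under 0.05 in 1 of 6 fits for C1S, C2 and ITGB2 and in 0 of 6 for VTN and CLU, while the unadjusted p was under 0.05 in 6 of 6 for each. The brightest complement genes were CALR and C1QBP, whose proteins bind C1q, with log2 fold changes of -0.12 and -0.02, and ITGB2.

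Of 44 ITAM partner genes, 31 were measurable, 2 rose (LCP2 and NCR2), 1 fell (NCR1) and 28 did not pass. The called share was 9.68% beside 1.92% of all genes. LCP2 and NCR2, like CLU, had a mean log2 signal under 3. Of the tested probes that dim, 19.8% differed by at least 1.5-fold between the group means, with no test. LCP2, the adaptor SLP-76, reached a reliable signal on 3 of 3 IL-17A arrays and on 0 of 3 controls, a rise of at least 1.64-fold (limma, adjusted p = 0.035). NCR2, the receptor NKp44, which pairs with TYROBP, measured 2.97 ± 0.45 against 1.87 ± 0.23 (SD, n = 3), a log2 fold change of 1.11 (limma, adjusted p = 0.055), with only 1 of 3 controls well above background. With slide as a block NCR2 was 0.74 and no longer passed. NCR1, the receptor NKp46, which pairs with FCER1G, measured 4.43 ± 0.44 against 5.10 ± 0.27 (SD, n = 3), a log2 fold change of -0.67 (limma, adjusted p = 0.145). NCR1 no longer passed without IL-17A replicate 1 or 3, or control replicate 1 or 2, with values from -0.84 to -0.42, and was -1.16 within the shared slide. Under normexp LCP2 measured 0.05, NCR2 0.08 and NCR1 -0.15, and none of them passed, nor did CLU at -0.09.

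The kinase and the related adaptor that work with TYROBP and FCER1G were bright and close in the groups. SYK measured 12.06 ± 0.04 against 12.03 ± 0.02 (SD, n = 3), a log2 fold change of 0.02 with SE 0.04 (limma, adjusted p = 0.697), and HCST, the adaptor DAP10, had -0.02 with SE 0.04 (limma, adjusted p = 0.692). CARD9, a linker downstream of SYK, rose by 0.42 (limma, adjusted p = 0.033), while its other probe gave -0.06, and with LCP2 it made the 2 genes of this list with an adjusted p under 0.05, or 6.45% of those measurable beside 7.85% of all genes, each in 1 of 6 fits with an array left out. The brightest genes were the B-cell receptor chains CD79A (-0.17) and CD79B (0.04) and the linker LAT2 (0.13). Of the 44 genes, 9 were detected on no array, among them TREM2, FCER1A and FCGR3A, receptors that pair with TYROBP or FCER1G. Detection on all 6 arrays was reached by 28, among them the receptors SIRPB1 (-0.18), PILRB (0.04) and OSCAR (-0.23). The median log2 fold change of the measurable genes was 0.04.

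Of the 16 genes of the MS4A and TMEM176 families, 3 were measurable and 0 passed the thresholds in limma, with 0 at an unadjusted p under 0.05, which 31.8% of all genes had. MS4A1, the B-cell antigen CD20, had a log2 fold change of -0.14 with SE 0.06 (limma, adjusted p = 0.184). TMEM176A had -0.60 with SE 0.53 (limma, adjusted p = 0.477), and TMEM176B had -0.58 with SE 0.32 (limma, adjusted p = 0.278). Of 25 pattern recognition genes, 13 were measurable and 0 passed both thresholds in limma, with 2 at an unadjusted p under 0.05 and a median of -0.02. With slide as a block, SFTPA2, a surfactant collectin, passed at -0.91, against -0.50 over all arrays. The brightest of them, all scavenger receptors, were SCARB1 (0.04), SCARA3, which fell by 0.26 on the log2 scale (limma, adjusted p = 0.0495, under 0.05 in 0 of 6 fits with an array left out), and MSR1 (0.13).

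**Figure D4:**
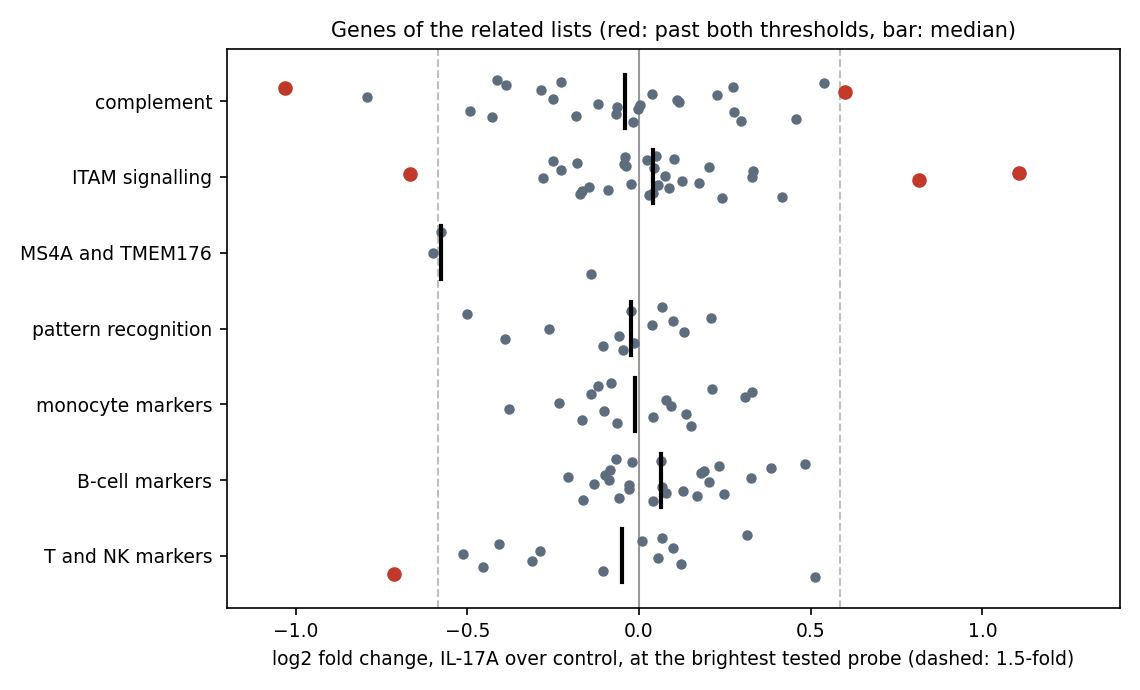
Log2 fold change (x axis, IL-17A over control, dashed lines at 1.5-fold) of each measurable gene of 4 pathway lists and 3 marker lists at its brightest tested probe, with the genes past both thresholds in red and a bar at each list's median. Complement and ITAM genes lie on both sides of 0, with LCP2 and NCR2 among the 3 genes past the thresholds upward and CLU and NCR1 past them downward, and of the marker genes CD28 passed.

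Markers of myeloid, B and T or NK cells were read beside the 8 genes. All 25 B-cell markers were detected on all 6 arrays, with TCL1A and POU2AF1 the brightest, at log2 fold changes of 0.23 and 0.19. None of the B-cell markers passed both thresholds in limma (11 of 25 at an unadjusted p under 0.05, beside 31.8% of all genes), and 3 rose below 1.5-fold with an adjusted p under 0.05, namely FCRL1 by 0.33, PRDM1 by 0.38 and TNFRSF13B by 0.48. The other probe of FCRL1 gave 0.01, so its rise was not seen there, while that of PRDM1 gave 0.43. With an array left out, the adjusted p stayed under 0.05 in 1 of 6 fits for PRDM1 and TNFRSF13B and in 0 of 6 for FCRL1. The summed B-cell marker signal was 132046 to 136262 with IL-17A and 119444 to 126524 in the controls, without overlap.

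Of 30 monocyte, macrophage and granulocyte markers, 16 were measurable, and 8 were detected on no array, among them CSF1R, CEBPA, CYBB and S100A8. The brightest were transcription factors that B cells use as well or that many cells share, IRF8 (0.08), CEBPB (0.04) and SPI1 (-0.12), the gene of PU.1. CD14, a defining monocyte marker, measured 5.04 ± 0.07 against 5.10 ± 0.12 (SD, n = 3), a log2 fold change of -0.07. None of the 16 passed both thresholds in limma (4 at an unadjusted p under 0.05), and their median was -0.01. Their summed signal was 16254 to 17460 with IL-17A and 15615 to 16449 in the controls. Without IRF8, the remaining 15 summed to 2248 to 2356 with IL-17A and 2241 to 2380 in the controls, ranges that overlap. Without CEBPB and SPI1 too, which made up most of that sum, the remaining 13 summed to 517 to 553 with IL-17A and 493 to 530 in the controls, again with overlap. The part of these markers in the signals of the 8 genes was not tested, and in bulk RNA fewer cells of a type and less RNA per cell cannot be told apart.

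Of 20 T and NK cell markers, 14 were measurable and 4 were detected on no array, among them CD5, TRAT1 and KLRD1. Of those measurable, 1 fell past both thresholds (CD28), a called share of 7.14% beside 1.92% of all genes. CD28, a costimulatory receptor of T cells, fell by 0.71 on the log2 scale with SE 0.10, from 4.83 ± 0.09 to 4.12 ± 0.18 (SD, n = 3) (limma, adjusted p = 0.033), and was -0.51, below 1.5-fold, within the shared slide. With slide as a block, which rests on IL-17A replicate 1 alone, KLRB1, a receptor of NK and T cells, was -0.63, against -0.41 over all arrays. KLRB1 measured 2.34 on that array, 2.53 and 2.81 on IL-17A replicates 2 and 3, and 2.80 to 3.16 in the controls. CD3E, a chain of the T-cell receptor complex, fell by 0.46 on the log2 scale (limma, adjusted p = 0.040). CD28 and CD3E were the 2 genes of this list with an adjusted p under 0.05, or 14.3% of those measurable beside 7.85% of all genes. The adjusted p stayed under 0.05 with an array left out in 1 of 6 fits for CD28 and in 0 of 6 for CD3E. Of the measurable genes of this list 7 had a higher and 7 a lower mean, with log2 fold changes of 0.51 for CD2, 0.32 for PRF1, 0.10 for GNLY and 0.07 for NKG7, none with an adjusted p under 0.05. The brightest of the list were LCK (0.01), CD4 (-0.31) and CD3G (0.12), and the median was -0.05. The summed signal of the list was 2472 to 2482 with IL-17A and 2557 to 2844 in the controls, without overlap. Without CD4 the remaining 13 genes summed to 1540 to 1625 and 1549 to 1632, which overlap, and without LCK too the remaining 12 summed to 314 to 319 and 324 to 346, which do not. The part of these markers in the signals of the 8 genes was not tested either.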

How the data were processed

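SU-DHL-2 cells with IL-17A (200 pg/ml, 72 h, 3 arrays) and without it (3 arrays) were grouped by their titles. For each array, the authors deposited an intensity per spot, with the local background subtracted by Agilent Feature Extraction 11.0.1.1 and no normalization between arrays, the median intensities of spot and background, and detection flags as scores of 0 or 1. The authors also deposited a series table of quantile normalized log2 values, used as an alternative.

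Control spots and 61 non-uniform spots were left out (49 probe values stayed missing). Intensities below 1 were set to 1, probes were averaged on the log2 scale, and arrays were quantile normalized, as in the study's methods. Probes detected (positive, significant and well above background) on at least 3 of 6 arrays were tested with limma 3.58.1 (R 4.3.3), two-sided. A call needed an unadjusted p under 0.05 with a change of 1.5-fold or more, and adjusted p-values are Benjamini-Hochberg over all tested probes. With 3 arrays a group, precision is limited by their number. Probes were named through RefSeq accessions (gene names of GRCh38.p14, 25771 of 34127 probes), and a gene is its brightest tested probe. Where no array of the dimmer group was well above background, that group was taken at the higher of its own signal and the lowest signal well above background. For LCP2 the fold is therefore a lower bound. For CLU its own signal was the higher on each IL-17A array, so the fold is that of the group means.

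The members and lists were chosen with earlier results of these data known. The text names all members, list genes past both thresholds, the 3 brightest genes of each list, up to 4 undetected genes of each cell type list, and for C1QA, C1QB and TYROBP the 3 genes most correlated with each. A few genes that this rule names are not reported here. C1R, C1S, C2, ITGAM, ITGAX, VTN, CARD9, SYK, HCST, TREM2, FCER1A, FCGR3A, SIRPB1, PILRB, OSCAR, CD14, FCRL1, PRDM1, TNFRSF13B, CD3E, CD2, PRF1, GNLY, NKG7, CFP, SFTPA2 and KLRB1 were chosen for naming with their values in view. Alternatives covered other normalizations and background correction, the series table, other filters, floors and thresholds, the methods' t-test, a variance trend, slide or replicate blocks, the mean over a gene's probes, and leaving out each array. Marker sums without CEBPB and SPI1, or without CD4 and LCK, were chosen after seeing the data. The replicate numbers did not pair the arrays.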

Additional observations from a re-analysis of the deposited data

How the results depend on the processing

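At the brightest probes of the 8 genes, 0 of 134 alternative values changed sign and 18 moved by more than the pooled SD, 7 of them under normexp and 5 with slide as a block. Many of these values are not separate checks. Other filters, the raised floor and the replicate block returned the same differences as the fit over all arrays. The fit on only the shared slide repeated the one with slide as a block. The genes were also chosen on this contrast, so nothing is read from the unchanged signs. The second FCN1 probe turned in 5 of 16 alternatives, to values between -0.08 and -0.01.

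The 522 probes past both thresholds became 15 under normexp with an offset of 50, 978 with no filter on dim probes, 299 when detection on all 6 arrays was required, 802 with only the slide that holds both groups, 82 at a fold change of at least 2, 197 with an adjusted p under 0.05, and 409 to 658 with an array left out. Scaling to the 75th percentile gave 150 higher and 422 lower (26.2% higher beside 46.2%), and no normalization 186 higher and 426 lower (30.4%). The methods' t-test gave 374. The 5 pathway genes became 0 under normexp, 2 when detected on all 6 arrays, 2 at a fold change of 2, 2 with adjustment, and 3 to 6 with an array left out, the 3 without control replicate 2. The 1 marker gene became 0 under normexp, 2 without a filter, 0 at a fold change of 2, and 1 to 2 with an array left out, the 2 without IL-17A replicate 2 or control replicate 3. The cause was not tested. Deviations of same-numbered arrays correlated at -0.087, -0.0025 and -0.047 and 0 of 3 arrays were closest to their own number, and with the replicate block there were 527 probes, 4 pathway genes (without NCR1) and 1 marker gene. With slide as a block there were 769 probes (260 higher, 509 lower), 5 pathway genes, 1 higher (LCP2) and 4 lower (CFP, CLU, NCR1 and SFTPA2), and 1 marker gene, KLRB1 instead of CD28. The IL-17A effect in the fit with slide as a block rests on IL-17A replicate 1 alone. The array number and the signal over background limit what can be seen for C1QA, C1QB, C1QC and MARCO.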
